A study of Mus musculus with 2 samples.

Results

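The genes of the Wnt pathway were described across 1 table of gene activity from C2C12 myoblasts. The rule that picks members reads the gene symbol and uses no measured value. They were the numbered Wnt, Fzd, Sfrp, Dkk, Rspo and Dvl genes, the Tcf7 family and Lef1, Lrp5, Lrp6, Axin1, Axin2, Wif1 and Apc. This gave 64 RefSeq entries of 54 gene symbols, of 24165 entries of 20128 symbols in all. C2C12 is an established mouse line of muscle precursor cells that divide as myoblasts and can fuse into myotubes. The cells were untreated and grown to 80% confluency, and 4 plates went into each isolation of nuclei. There was no second condition. Nascent RNA was read by global run-on sequencing (GRO-seq), in which RNA polymerases already engaged on a gene extend their transcripts in isolated nuclei with a labelled nucleotide, so the reads report transcription and not the amount of stable mRNA.

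The authors pooled 2 replicate libraries and gave 1 value per entry, named gene activity, which is the density of sense-strand reads in the gene body, from 1 kb after the transcription start site (TSS) to the transcript end site (TES). Its unit is RPKmM, a read density scaled to the kilobase of mappable sequence and to the depth of sequencing, so levels can be compared between genes per length. Where the reads of an entry did not pass the authors' test against gene deserts, the word inactive stands in place of a value, so an inactive entry, above all of a short gene, may still hold some reads. Because the libraries were pooled, no value below has a replicate error, no difference between genes was tested, and the depth of each library is unknown.

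Wnt proteins are secreted, lipid-modified ligands that bind Frizzled receptors and the co-receptors Lrp5 and Lrp6 at the cell surface. Binding recruits Dishevelled (Dvl) and Axin to the membrane and stops the Axin and Apc complex from marking beta-catenin for destruction, after which beta-catenin enters the nucleus and acts with Tcf/Lef factors. Sfrp proteins and Wif1 bind Wnt ligands outside the cell, Dkk proteins bind the Lrp co-receptors, and R-spondins raise the amount of receptor at the surface. In muscle, Wnt signals act in the formation of the myotome and in the growth, differentiation and regeneration of muscle precursor cells.

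The label of the cells was set against marker genes. All 5 myoblast markers were active, at 72.45 RPKmM for Des, 8.08 for Cdh15, 5.03 for Myf5, 2.39 for Myod1 and 0.55 for Pax7. All 5 markers of differentiated muscle were active as well, between 0.2 for Ckm and 6.85 for Acta1, with Myog at 2.39 RPKmM. Of the neuronal markers, 2 of 4 were active, Stmn2 at 0.61 and Syp at 0.11 RPKmM. No marker of blood, endothelium, epithelium, hepatocytes or adipocytes that was in the table exceeded 0.02 RPKmM.

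Transcription of the pathway divided by the role of the gene. Receptors, cytoplasmic components and Tcf/Lef factors were active in 21 of 22 symbols, whereas ligands, secreted antagonists and R-spondins were active in 17 of 32. In total 48 of 64 member entries were active (75%), against 70.2% of all entries in the table, and 38 of 54 symbols had an active entry (70.4%), against 68.7% of all symbols. The share of active members was therefore close to that of all genes. The median of active members was 0.46 RPKmM (quartiles 0.03 and 1.56), and that of all active entries was 0.87 (quartiles 0.22 and 1.99). Among entries of at least 0.05 RPKmM the medians were 0.97 and 1.1, and among genes of at least 10 kb 0.285 and 0.95, so the gap varied with the entries that were counted. By its most active entry, a symbol reached 1 RPKmM or more in 15 of 54 cases (27.8%), against 31.6% of all symbols. Over entries, 16 of 64 members were at 1 RPKmM or above (25%), against 32.3% of all entries, 31 of 64 at 0.1 or above (48.4%), against 57.2%, and 33 of 64 at 0.05 or above (51.6%), against 60.3%. By symbol, 25 of 54 were at 0.1 RPKmM or above, against 55.7% of all symbols. The class active below 0.1 RPKmM held 13 of 54 symbols (24.1%) and 13.0% of all symbols. Values are given to 2 decimals, so a value of 0.01 stands for anything between 0.005 and 0.015 RPKmM, and the order of the least active genes is not resolved.

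**Figure D1:**
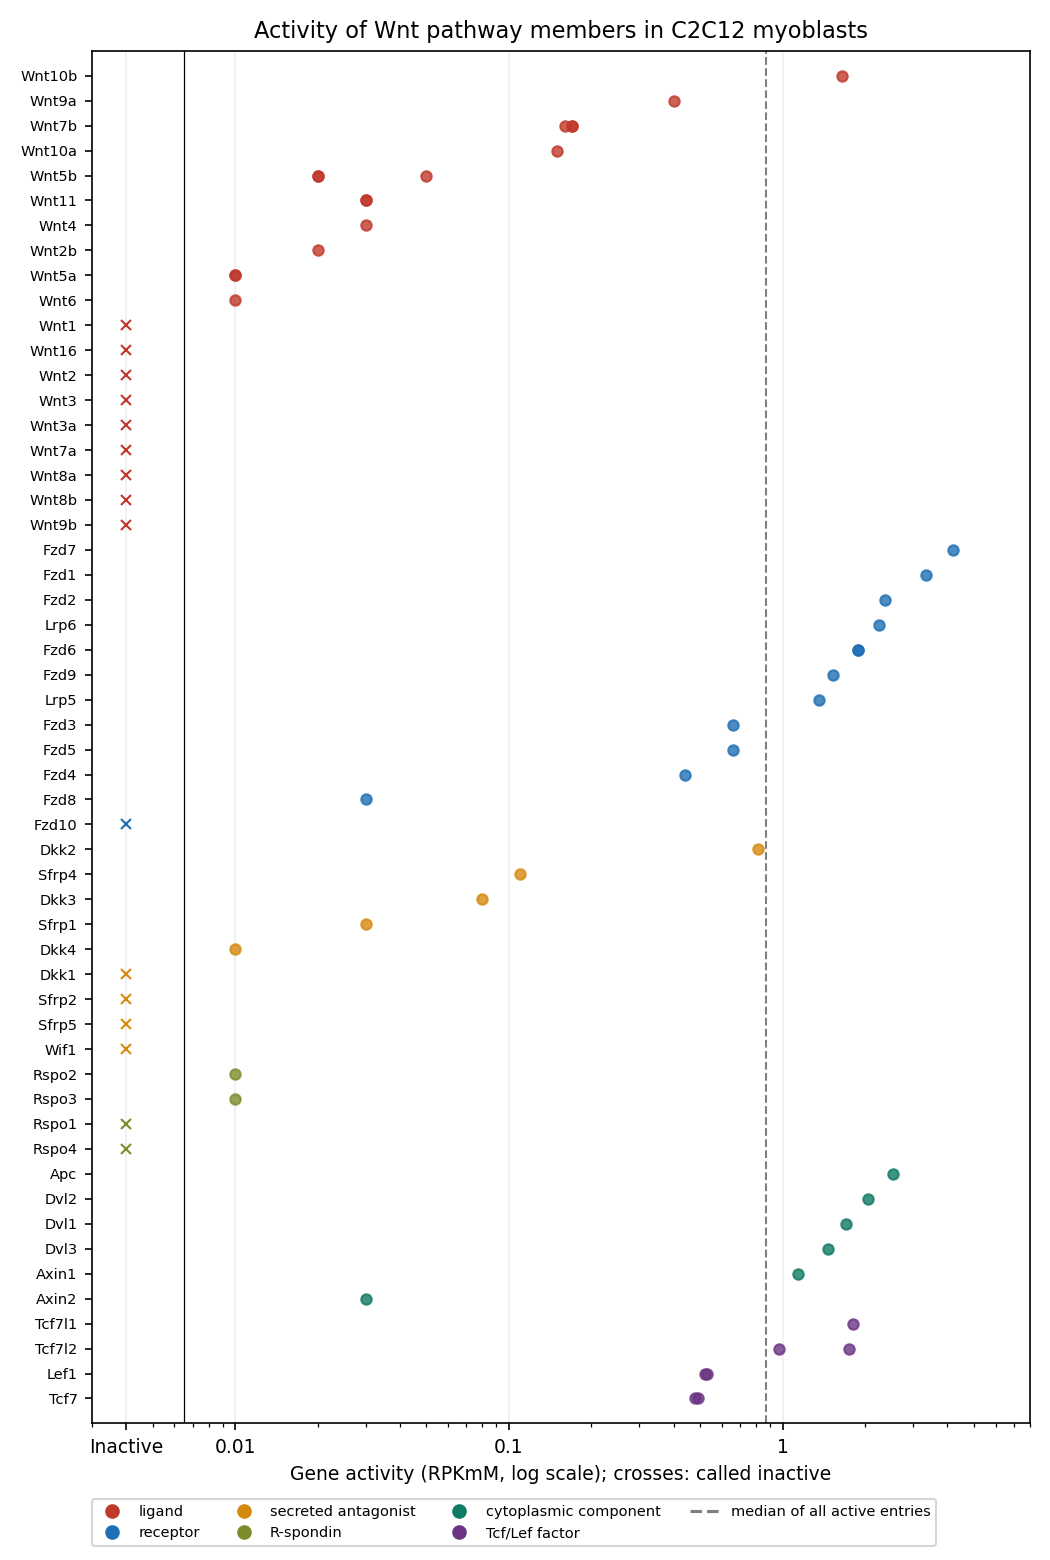
Gene activity in RPKmM on a log scale for every RefSeq entry of the 54 member symbols, with each symbol on a line of its own, coloured by role; crosses at the left are inactive entries and the dashed line is the median of all active entries, 0.87 RPKmM. Most receptors and cytoplasmic components lie to the right of that line, and Wnt10b is the ligand that does.

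Of the 19 Wnt ligand genes, 10 were active (52.6%), and their median was 0.04 RPKmM. Wnt10b, a ligand known to hold back fat cell formation in muscle and bone precursors, was the most active at 1.65 RPKmM (NM_011718), above 69.3% of all active entries and 1.90 times their median. It was the single ligand to reach 1 RPKmM. Wnt9a followed at 0.4 RPKmM (NM_139298), above 32.4% of active entries. The 3 entries of Wnt7b stood at 0.16, 0.17 and 0.17 RPKmM, and Wnt10a stood at 0.15. The other active ligands were all below 0.1 RPKmM. Wnt5b, a ligand of mostly beta-catenin-independent signalling, had entries at 0.02, 0.02 and 0.05 RPKmM, and its paralogue Wnt5a was at 0.01 in both of its entries. Wnt11, known for cell polarity and movement, was at 0.03 RPKmM in both entries, Wnt4 at 0.03, Wnt2b at 0.02 and Wnt6 at 0.01. The inactive ligands were Wnt1, Wnt2, Wnt3, Wnt3a, Wnt7a, Wnt8a, Wnt8b, Wnt9b and Wnt16. Wnt1 and Wnt3a, which are classical activators of beta-catenin, and Wnt7a, which is known to enlarge the satellite cell pool, were thus among the genes that did not pass the test against gene deserts.

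The receptor class held the most active member. Of 12 receptor symbols, 11 were active, with a median of 1.53 RPKmM, and 7 reached 1 RPKmM. Fzd7, the Frizzled known as the Wnt7a receptor of satellite cells, had the highest value of all members at 4.21 RPKmM (NM_008057), above 90.4% of active entries. Its close paralogues Fzd1 and Fzd2 were next among the receptors, at 3.33 and 2.37 RPKmM, above 86.5% and 79.5% of active entries. The co-receptors that pass the signal to the beta-catenin branch were both active, Lrp6 at 2.25 and Lrp5 at 1.36 RPKmM. Fzd6 stood at 1.89 RPKmM in both entries and Fzd9 at 1.53. Below the median of all active entries lay Fzd3 and Fzd5, both at 0.66 RPKmM, and Fzd4, also the receptor of norrin, at 0.44. Fzd8 was at 0.03 RPKmM, above 10.5% of active entries, and Fzd10 was the inactive receptor. The Frizzled family therefore ranged from an inactive gene to 4.21 RPKmM.

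Of the 9 secreted antagonists, 5 were active and none reached 1 RPKmM. Dkk2 was the highest at 0.81 RPKmM, above 48.0% of active entries. The other active antagonists were Sfrp4 at 0.11, Dkk3 at 0.08, Sfrp1 at 0.03 and Dkk4 at 0.01 RPKmM. Dkk1, the best known inhibitor of Lrp5 and Lrp6, was inactive, as were Sfrp2, Sfrp5 and Wif1. Dkk3 is set apart from the family by background knowledge, since it is not known to bind the Lrp co-receptors as Dkk1 does. Among the 4 R-spondins, Rspo2 and Rspo3 were active at 0.01 RPKmM each, the lowest value a member had, and Rspo1 and Rspo4 were inactive.

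All 6 cytoplasmic components were active, with a median of 1.59 RPKmM. Apc, the scaffold of the destruction complex, was at 2.53 RPKmM, above 81.1% of active entries. The 3 Dishevelled genes lay close together, Dvl2 at 2.06, Dvl1 at 1.71 and Dvl3 at 1.47 RPKmM. The paralogous scaffolds Axin1 and Axin2 stood far apart, at 1.14 and 0.03 RPKmM, above 57.9% and 10.5% of active entries. Axin2 is itself a widely used target gene of beta-catenin and Tcf factors, whereas Axin1 is held to be expressed at a steady level in most cells.

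All 4 Tcf/Lef genes were active. Tcf7l1, mostly known as a repressor, was at 1.81 RPKmM. Tcf7l2 had entries at 1.75 (NM_001142918) and 0.97 RPKmM (NM_001142924). Lef1 was at 0.52 and 0.53 RPKmM and Tcf7 at 0.48 and 0.49, so these 2 genes, often listed as beta-catenin targets themselves, were the lower pair.

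**Figure D2:**
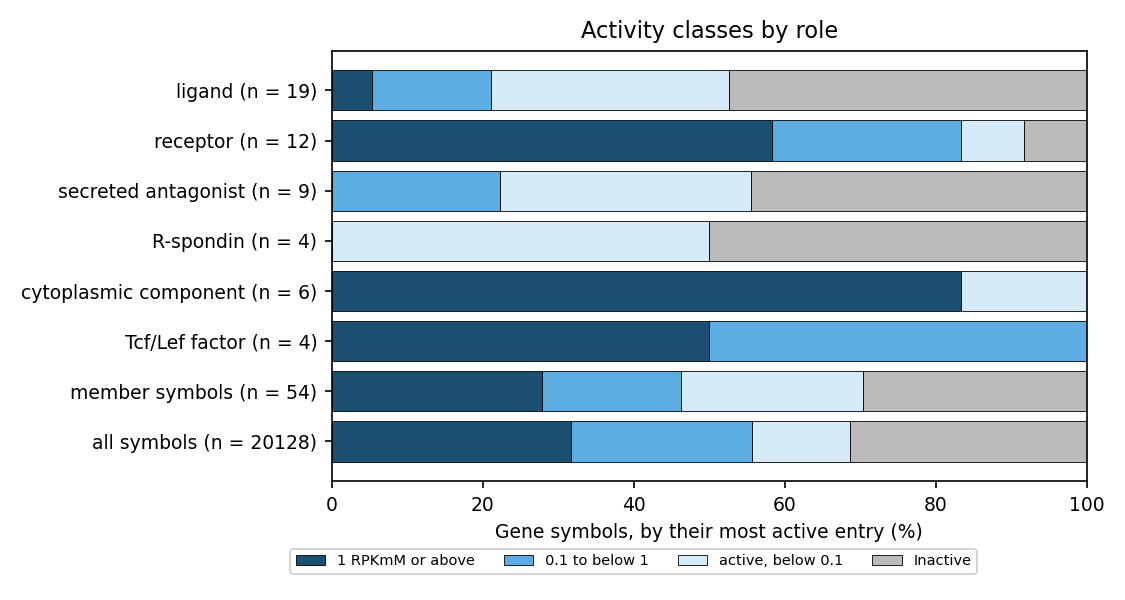
Share of the symbols of each role, of all members and of the whole table (percent on the horizontal axis, n beside each name) that were inactive, active below 0.1, from 0.1 to below 1, or at 1 RPKmM or above, by their most active entry. The class of 1 RPKmM or above holds 7 of 12 receptors and 5 of 6 cytoplasmic components but 1 of 19 ligands and no antagonist or R-spondin.

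Of the 54 symbols, 8 had more than 1 entry, and all entries of these 8 were active. The highest entry was 2.5 times the lowest for Wnt5b, where both values are near the rounding step, and 1.8 times for Tcf7l2. It was 1.06 times for Wnt7b and 1.02 times for Tcf7 and Lef1, and the entries of Fzd6, Wnt11 and Wnt5a had the same value. The median of this ratio was 1.02 over the members and 1.1 over the 2273 symbols of the table with several active entries. The entries of 1 gene share most of their reads and are not independent measurements.

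Density and the number of reads gave different orders. The members were placed on mm9 by their symbol in the GENCODE annotation, and all 54 were found. The median gene length was 24.7 kb for active members and 21.6 kb for inactive ones, against 24.6 and 15.0 kb over all genes. The most active receptors are short. Fzd7 lies at chr1:59538991-59543791 on the plus strand and Fzd1 at chr5:4753842-4758216 on the minus strand, and 16 of the 54 members were under 10 kb, 5 of which reached 1 RPKmM. Across active members, activity and gene body length had a Spearman rho of -0.02 (n = 38 genes), and over all active genes of -0.04 (n = 11967 genes), where genes are not independent replicates and share the pooled libraries.

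The product of density and gene body length gives the reads of a gene scaled to the depth of the libraries (RPM), if all bases are taken as mappable and the GENCODE span of the gene stands for that of the RefSeq entry. It is an estimate, above all for genes with several entries. The estimate was 334 RPM for Tcf7l2 (185 from its lower entry), 293 for Tcf7l1, 269 for Lrp6, 254 for Apc and 137 for Lrp5, but 16.0 for Fzd7 and 11.2 for Fzd1. The density of Fzd7 was 1.66 times that of Apc, while Apc held an estimated 15.9 times as many reads. Wnt9a, at 10.25 RPM, exceeded Wnt10b at 8.91, the reverse of their order by density. At the low end Dkk4 held 0.0249 RPM, so its call rests on very few reads. Over all active members the Tcf/Lef factors held 40.1% of the reads, the receptors 31.2%, the cytoplasmic components 21.8%, the antagonists 4.67%, the ligands 2.06% and the R-spondins 0.132%. With the lowest entry of each gene the factors held 34.6% and the receptors 34.2%.

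**Figure D3:**
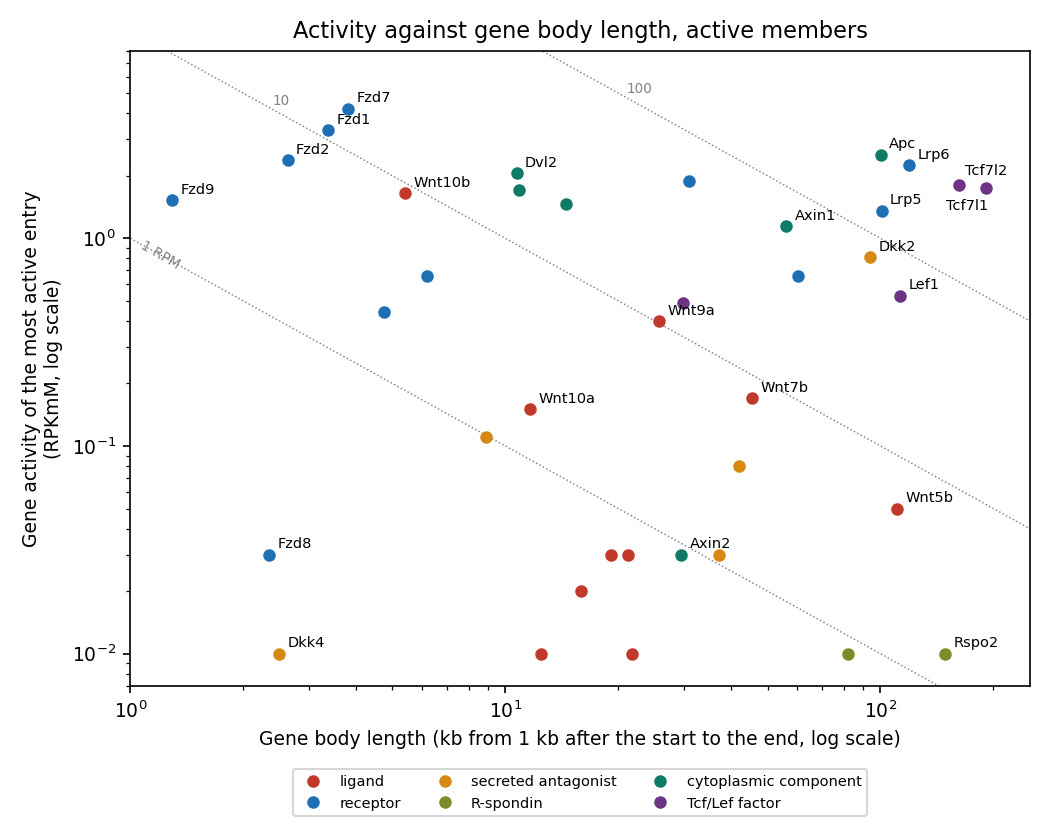
Gene activity of the most active entry (RPKmM) against gene body length (kb), both on log scales, for the 38 active members, coloured by role; dotted lines join points of equal scaled reads, at 1, 10 and 100 RPM. Fzd7 has the highest density, and the long genes Tcf7l2, Tcf7l1, Lrp6 and Apc at the right hold the most reads.

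Wnt genes often lie next to each other, and 8 of them formed 4 adjacent pairs, 3 head to head and 1 in tandem. In 2 of the head-to-head pairs one gene was active and its neighbour was not. Wnt10b (chr15:98602184-98608581, minus strand, mm9) was at 1.65 RPKmM, and Wnt1 (chr15:98620288-98624268, plus strand) was inactive at a distance of 11.7 kb. Wnt9a (chr11:59120430-59147054, plus strand) was at 0.4 RPKmM, and Wnt3a (chr11:59061535-59104254, minus strand) was inactive at 16.2 kb. In the other head-to-head pair, Wnt9b (chr11:103588678-103611135, minus strand) and Wnt3 (chr11:103635464-103679271, plus strand), 24.3 kb apart, were both inactive. In the tandem pair both genes were active, Wnt6 (chr1:74818466-74831893, plus strand) at 0.01 and Wnt10a (chr1:74838090-74850753, plus strand) at 0.15 RPKmM, with 6.20 kb between them. Of the 8 paired genes, 4 were active, beside 10 of all 19 Wnt genes (52.6%) and 68.7% of all symbols. The count in pairs was thus near the share of Wnt genes in general.

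**Figure D4:**
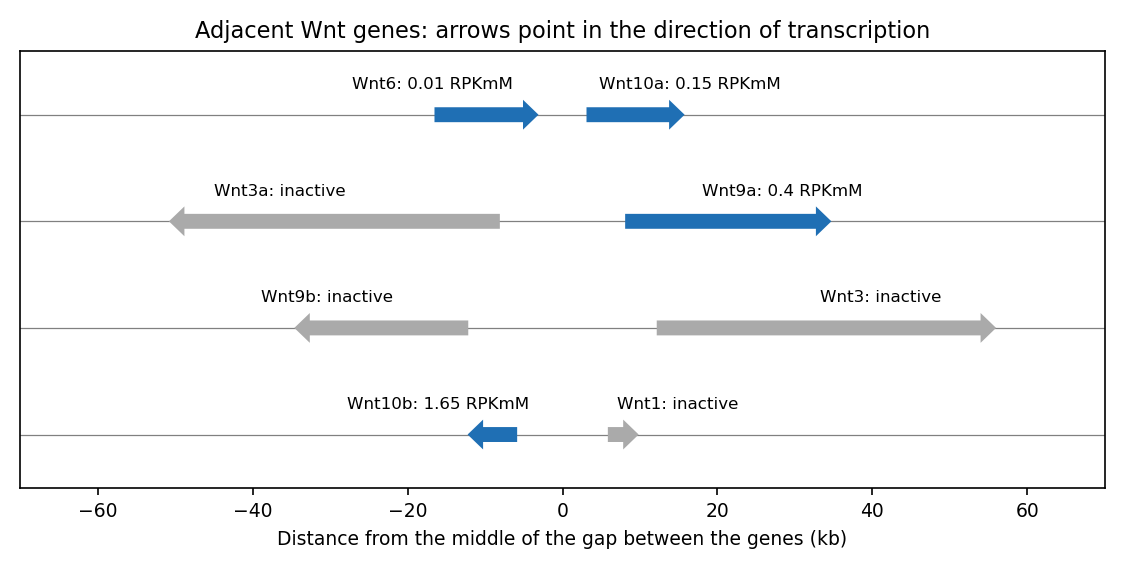
Map to scale of the 4 adjacent Wnt pairs, with distance in kb from the middle of the gap between the genes; arrows point in the direction of transcription, blue for active and grey for inactive genes, with the activity in RPKmM beside each name. In the pairs Wnt10b and Wnt1 and Wnt9a and Wnt3a the active gene faces away from an inactive one.

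The starts of Wnt10b, the most active ligand, and of its inactive neighbour Wnt1 are shown because they lie so near each other. They are RefSeq promoter sequences of build GRCm38.p6, 250 bases before to 50 after the start, read 5′ to 3′ along the gene's strand, with CpG dinucleotides in capitals. The Wnt10b sequence is chr15:98778101-98778400 on the minus strand and the Wnt1 sequence chr15:98789607-98789906 on the plus strand. Wnt1 was chosen after its value was seen.
Wnt10b: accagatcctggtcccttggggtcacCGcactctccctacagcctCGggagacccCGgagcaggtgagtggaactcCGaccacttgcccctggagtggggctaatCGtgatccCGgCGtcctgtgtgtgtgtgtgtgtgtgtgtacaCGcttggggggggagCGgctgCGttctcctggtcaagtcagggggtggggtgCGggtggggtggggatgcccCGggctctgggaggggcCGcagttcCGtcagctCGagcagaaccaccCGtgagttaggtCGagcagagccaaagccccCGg
Wnt1: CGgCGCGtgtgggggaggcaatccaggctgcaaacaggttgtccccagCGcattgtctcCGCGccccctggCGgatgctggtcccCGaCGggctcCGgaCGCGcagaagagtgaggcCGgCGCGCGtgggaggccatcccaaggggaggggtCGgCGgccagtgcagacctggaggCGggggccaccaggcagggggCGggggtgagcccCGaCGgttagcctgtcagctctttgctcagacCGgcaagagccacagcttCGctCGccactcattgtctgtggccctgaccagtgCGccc
Wnt10b had 18 CpG dinucleotides, 0.559 of the number its C and G content would give (the CpG observed to expected ratio), and Wnt1 had 26, a ratio of 0.699. In this pair the inactive gene had the higher ratio. In the pair of Wnt9a and Wnt3a the active gene had it, at 1.13 for Wnt9a and 0.863 for Wnt3a in windows of the same length on mm9.

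Promoters that carry many CpG dinucleotides are mostly unmethylated and belong to widely used and to developmental genes. The RefSeq promoters held 36 of 54 members (66.7%) and 15199 of 20128 symbols in all. Because members are missing there, no comparison is drawn over them here. Windows of the same 300 bases were read from mm9 at the GENCODE start of all 54. There the median CpG ratio was 0.810 in the 38 active members and 0.691 in the 16 inactive members. Over all genes it was 0.729 in active genes (n = 11964) and 0.275 in inactive genes (n = 4611). A ratio of 0.6 or more was found in 29 of 38 active members (76.3%) and 10 of 16 inactive ones (62.5%), against 65.3% and 19.6% of all active and inactive genes. The median of the inactive members thus lay near that of active genes in general and above that of inactive genes in general. Among ligands, the median was 0.870 for the 10 active genes and 0.699 for the 9 inactive ones. The lowest ratios among members were those of Dkk4 at 0.227, Dkk1 at 0.240, Wnt8a at 0.258 and Wnt10a at 0.279, so both active and inactive genes were among them. Wnt11 at 1.18 and Lrp6 at 1.17 had the highest ratios, with activities of 0.03 and 2.25 RPKmM.

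**Figure D5:**
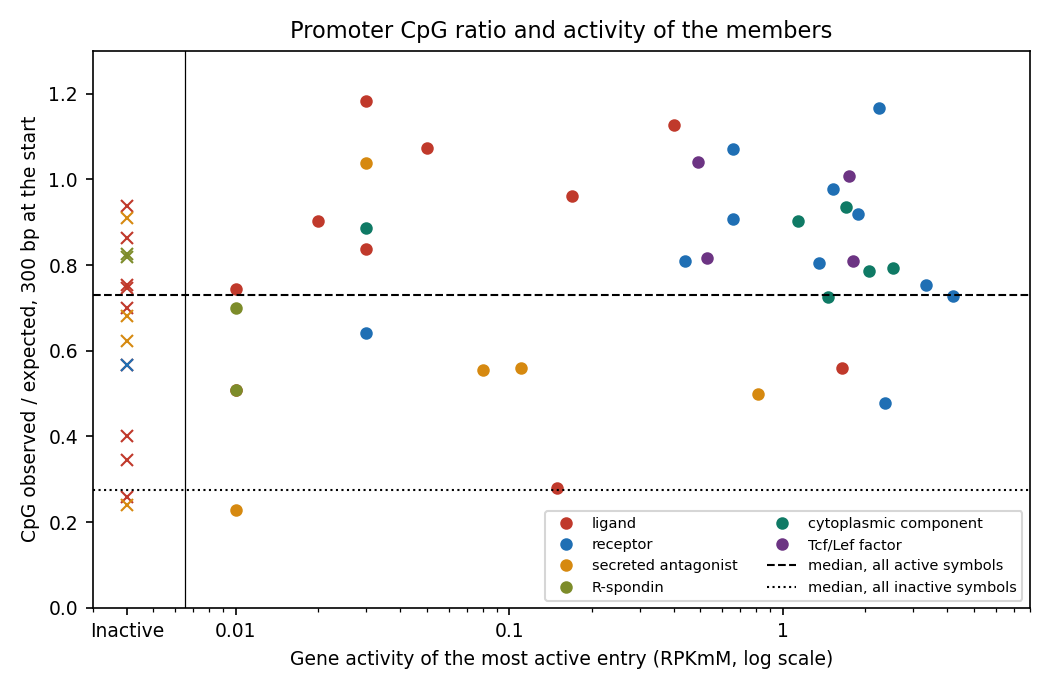
CpG observed to expected ratio of the 300-base mm9 window at the gene start against gene activity (RPKmM, log scale) for the 54 members, coloured by role; crosses stand for inactive members, and the dashed and dotted lines are the medians of all active (0.729) and all inactive symbols (0.275). The 16 inactive members lie within the range of the active ones, and Dkk4, Dkk1, Wnt8a and Wnt10a lie at the lowest ratios.

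The same windows were searched on both strands for the core that Tcf/Lef factors bind, taken as the heptamer CTTTGAA or with a different ending as CTTTGAT or else as CTTTGTA or finally as CTTTGTT. A match was found in 6 of 54 members (11.1%), namely Dkk4, Fzd7, Tcf7, Wnt11, Wnt3 and Wnt8a, against 14.1% of 16575 gene windows. For CTTTGAT alone the direction turned, with 4 of 54 members (7.41%) against 3.08% of windows, and neither difference was tested. Neither Axin2 nor Lef1 had one in this window. The E-box CANNTG, the core that MyoD and its relatives bind, was in 32 of 54 members (59.3%) against 67.5% of windows, and its form CAGCTG in 6 of 54 (11.1%) against 16.0%. CAGCTG is contained in CANNTG, and a match of letters is not a bound site.

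In the RefSeq promoters, 4 of the 36 members found there had such a heptamer, a count that is given without comparison because the table lacks the other members. They are shown because they include Fzd7, the most active member, and 2 inactive genes, Dkk1 and Wnt3. All are from GRCm38.p6 and are read 5′ to 3′ along the gene's strand, with the heptamer in capitals. Fzd7 is chr1:59481897-59482196 (plus), Wnt11 chr7:98834862-98835161 (plus), Dkk1 chr19:30549447-30549746 (minus) and Wnt3 chr11:103773925-103774224 (plus).
Fzd7: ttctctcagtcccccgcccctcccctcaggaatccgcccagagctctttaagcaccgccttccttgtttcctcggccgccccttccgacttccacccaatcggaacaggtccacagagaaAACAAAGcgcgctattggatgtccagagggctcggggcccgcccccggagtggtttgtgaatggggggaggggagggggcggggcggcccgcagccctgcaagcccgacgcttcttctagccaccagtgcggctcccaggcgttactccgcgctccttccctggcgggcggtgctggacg
Wnt11: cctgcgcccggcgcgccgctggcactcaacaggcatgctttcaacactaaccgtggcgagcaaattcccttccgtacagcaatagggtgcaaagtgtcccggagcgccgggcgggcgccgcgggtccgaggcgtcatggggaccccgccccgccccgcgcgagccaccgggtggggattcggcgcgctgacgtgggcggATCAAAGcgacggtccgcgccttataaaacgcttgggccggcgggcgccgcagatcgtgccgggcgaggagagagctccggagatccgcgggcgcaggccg
Dkk1: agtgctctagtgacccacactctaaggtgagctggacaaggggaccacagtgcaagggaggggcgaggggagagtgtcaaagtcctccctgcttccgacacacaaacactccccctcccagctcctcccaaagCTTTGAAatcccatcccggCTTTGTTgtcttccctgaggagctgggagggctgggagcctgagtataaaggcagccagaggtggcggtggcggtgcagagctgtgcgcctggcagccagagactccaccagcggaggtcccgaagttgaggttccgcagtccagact
Wnt3: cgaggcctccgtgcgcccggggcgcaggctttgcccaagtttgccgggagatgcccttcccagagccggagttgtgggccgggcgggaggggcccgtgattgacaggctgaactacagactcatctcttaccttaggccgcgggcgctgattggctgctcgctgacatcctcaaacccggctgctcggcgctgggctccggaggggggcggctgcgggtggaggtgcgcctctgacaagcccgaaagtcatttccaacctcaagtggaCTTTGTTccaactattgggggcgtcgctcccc
In Fzd7 the match AACAAAG begins 130 bases upstream of the start and in Wnt11 the match ATCAAAG begins 51 bases upstream. Dkk1 has CTTTGAA at 117 and CTTTGTT at 98 bases upstream, and Wnt3 has CTTTGTT at position 19 of the transcript. The activities of these genes were 4.21 RPKmM for Fzd7, 0.03 for Wnt11 and inactive for the other two, so genes with the heptamer were found at both ends of the range. The window depends on the start used, since Dkk1 had no match in the mm9 window at its GENCODE start.

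The genes next to the members on the chromosome were mostly active whether the member was active or not. Of the genes adjacent to active members, 59 of 76 were active (77.6%), and of those adjacent to inactive members 24 of 32 (75.0%). Over all placed genes these shares were 79.8% beside active and 52.5% beside inactive genes. The inactive members thus had active neighbours more often by count than inactive genes in general, a difference that was not tested. Neighbours of the 5 most active members differed. Fzd7 lay between Cdk15 at 0.02 RPKmM, 129 kb away, and the inactive Gm973, 29.3 kb away. Lrp6 lay between the inactive Bcl2l14 and Mansc1, at 7.74 and 42.2 kb. Fzd1 had Cyp51 at 4.26 RPKmM, 649 kb away, and Cdk14 at 1.87, 45.2 kb away. Fzd2 lay between the inactive Gm11627 at 25 kb and Ccdc43, at 1.78 RPKmM and 76.6 kb. Apc had the inactive Gm10549 at 748 kb and Srp19, at 2.47 RPKmM, 8.66 kb beyond its end.

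Polymerases that run past the end of an upstream gene on the same strand would be counted in the next gene. Among the active members, 4 had such a gene ending within 10 kb of their start. They were Dvl1 (Mxra8 at 9.74 RPKmM, 3.31 kb upstream), Dvl2 (Phf23 at 6.14 RPKmM, 0.585 kb upstream), Dvl3 (Eif2b5 at 1.64 RPKmM, 7.03 kb upstream) and Wnt10a (Wnt6 at 0.01 RPKmM, 6.20 kb upstream). Their part in the values of these members was not tested. No member overlapped, on the same strand, another of the protein-coding genes that could be placed by symbol. Noncoding and unplaced genes were not looked at, here or among the adjacent genes.

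The rest of the pathway was read from 52 further symbols in 7 lists. Of their 67 entries 58 were active (86.6%, against 70.2% of all entries), and by symbol 44 of 52, against 68.7% of all symbols. In the list of ligand secretion and release all 3 genes were active. Of the genes that act in secretion itself, Wls, the carrier that takes Wnt proteins to the cell surface, was at 12.66 RPKmM and Porcn, which attaches the lipid, at 0.65. The third gene, Notum, a secreted enzyme that removes the lipid and so inactivates Wnt proteins, was at 0.03. Of the other receptors and planar polarity genes 10 of 11 were active, from the receptor kinase Ryk at 2.15 RPKmM to Celsr1, which was called active and listed at 0, and Celsr2 was inactive. Of the R-spondin receptors and ligases 4 of 5 were active, with Znrf3, a ligase that removes Frizzled from the surface, at 1.39 and 1.47 RPKmM. Lgr5 was called active and listed at 0, and Rnf43, the paralogue of Znrf3, was inactive. Of the other antagonists 3 of 8 were active. Kremen1, a membrane receptor of Dkk proteins, was at 2.07 RPKmM and Dkkl1 at 0.01, while Frzb, Sost, Sostdc1, Kremen2 and Cer1 were inactive.

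Inside the cell, all 12 genes of beta-catenin, its kinases and its degradation were active, and 9 of them reached 1 RPKmM. Over all symbols, 68.7% were active and 31.6% reached 1 RPKmM by their most active entry. Of these 12, Ctnnb1, which encodes beta-catenin, was the highest at 18 and 18.1 RPKmM in its entries, above 98.6% of all active entries. The lowest entry, at 0.52, was 1 of Ctnnbip1, an inhibitor of the contact between beta-catenin and Tcf. Its other entry was at 0.55, and Cby1 was at 0.53. All 8 nuclear cofactors were active, from Pygo1 at 0.03 to Bcl9l at 6.3 RPKmM. Of the 5 genes listed as targets of the pathway 4 were active, beside 68.7% of all symbols, and they did not share a level. Myc was at 13.6 and Ccnd1, which encodes cyclin D1, at 8.05 RPKmM, and both have many inputs besides Wnt. The factor Sp5 was at 0.06 and Nkd2, a feedback inhibitor that binds Dishevelled, at 0.02 RPKmM, and its paralogue Nkd1 was inactive in both entries.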

How the data were processed

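Gene activity of C2C12 myoblasts was taken from 1 table with 1 measured column and 24165 RefSeq entries. The authors deposited it as RPKmM, an RPKM over mappable bases, computed on the sense strand from 1 kb after the TSS to the TES. Per the labels and methods, base calls came from CASAVA 1.8, reads were mapped to mm9 with Bowtie2 (version not given in the sources used here), failed reads were trimmed and remapped, unique reads were kept, reads in rRNA and tRNA repeats were discarded and 2 libraries were pooled. Entries not above gene deserts in the authors' Poisson test were written as inactive. With no number in 7208 inactive cells, the unit was taken from the column's name and the methods. Removal of repeats can leave parts of a gene uncounted, and rounding to 2 decimals limits low values.

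From these values counts, shares, medians and ratios were computed, without a test, since pooled values hold no replicate error. The rule for members uses gene symbols only, but it and the lists were chosen with earlier results of these data known. Every member is named; of the other pathway lists, the most and the least active entry and every inactive gene are named, with further genes named after their values were seen. Markers of other cell types were listed likewise, and 2 of them were not analysed here. Positions came from GENCODE vM1 by symbol (16578 of 20128 symbols, 82.4%), promoters from RefSeq (GRCm38.p6; 36 of 54 members) and, added after seeing the data, from 300-base mm9 windows. Sequence was read with samtools 1.23.1 and pysam 0.24.0, values were computed in Python 3.11.15 with pandas 2.3.3, scipy 1.17.1 and numpy 2.4.6, and plots were drawn in matplotlib 3.10.9. The counting steps were tested on simulated data.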

Additional observations from a re-analysis of the deposited data

How the results depend on the processing

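Of 66 values under other settings, 47 stayed within the limits used and 19 moved. The limits were 1.5 times for counts and a 95% binomial interval for shares and medians, used as a yardstick and not a test. The interval was taken over entries, but for promoters, also those on mm9, over symbols of the RefSeq promoters. The tally does not measure robustness, because some outcomes were fixed by the setting. No member overlapped another placed gene on the same strand, so leaving out such genes kept all 64 entries. All entries of symbols with several were active, so the highest and the lowest gave the same counts. A count over fewer entries could move without a change in share. With 1 entry per symbol, whether the highest or the lowest, active ligands numbered 10 in place of 16 and active factors 4 in place of 7. Counting as active only entries of at least 0.05 RPKmM, 51.6% of members were active (all entries 60.3%), with 7 ligands, 3 antagonists and 0 R-spondins. At 0.1 RPKmM, 31 members or 48.4% were active (all entries 57.2%), with a median of 1.14 (all 1.19) and with 6 ligands, 2 antagonists and 0 R-spondins, and the share of other pathway entries was 64.2% in place of 86.6%. The share of active members then lay below that of all entries and not above it. Among genes of at least 10 kb, 5 of 5 receptor entries and 3 of 4 antagonists were active, beside 79.2% of member entries and 77.1% of all entries of that length. With inactive entries set to 0, the member median was 0.065 RPKmM (all 0.31). The heptamer CTTTGAT alone was in 4 of 54 mm9 member windows (7.41%, all windows 3.08%), above the background where any form lay below it. In the RefSeq promoters, the planned source, which holds too few members for a comparison, it was in 2.78% of members in place of 11.1% for any form. The planned CpG ratios there were 0.886 in active and 0.753 in inactive members, and at a limit of 0.1 RPKmM 0.799 above and 0.825 in the others. In the mm9 windows, added later, the values at that limit were 0.810 in 25 symbols and 0.700 in 29. The RefSeq values rest on 15 and 21 symbols, so the sources differ in their members. Whether the order depends on the source cannot be read from these values. The causes were not tested. No paired analysis was possible because the table holds 1 pooled column, and leaving out a replicate was not run for the same reason. Depth acts through reads and not density, and these were few for Dkk4 (0.0249 RPM), Fzd8 (0.0704 RPM) and Wnt6 (0.124 RPM).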

Other observations

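Beyond the adjacent Wnt pairs, 3 further pairs of members lay 821 kb apart or less on the same chromosome. Between them, only protein-coding genes that could be placed by symbol were counted. Wnt8a, inactive, lay 220 kb from Apc at 2.53 RPKmM, with 4 such genes between them. Dkk2 at 0.81 RPKmM lay 821 kb from Lef1 at 0.53, also with 4 genes between them. Sfrp1 at 0.03 RPKmM lay 784 kb from Dkk4 at 0.01, with 8 genes between them, so in this region both antagonists were near the lower end of the values.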
